A study of Mus musculus with 16 samples.

Results

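Transcripts of 9 cofactors of nuclear receptors were followed in mouse macrophages: the coactivators Ncoa1, Ncoa2 and Ncoa3, the acetyltransferases Ep300 and Crebbp, the corepressor Ncor1 and the histone deacetylases Hdac1, Hdac2 and Hdac3. They were taken by symbol from a table of 9614 genes, and all 9 of the 9 listed genes were found in it. The 16 RNA-seq libraries came from bone-marrow-derived macrophages (BMDM) of 8-week-old male C57BL/6 mice. WT mice were LysM-Cre:NELF-B wt/wt and NELF-B KO mice were LysM-Cre:NELF-B fl/fl, so both genotypes carried LysM-Cre, which is active in myeloid cells, and the floxed gene was deleted only in the KO. NELF-B is a subunit of the negative elongation factor, which holds RNA polymerase in a paused state near promoters. For each genotype there were 2 untreated libraries, 3 from cells given 10 ng/ml LPS for 1 hr and 3 from cells given 10 ng/ml LPS with 100 nM dexamethasone (Dex), a synthetic glucocorticoid, for 1 hr. Each genotype was represented by 3 mice, called A, B and C here. The libraries of a letter within a genotype came from 1 mouse, mouse C had no untreated library, and the WT and KO mice of a letter were different animals.

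The p160 coactivators Ncoa1, Ncoa2 and Ncoa3 (also called SRC1, GRIP1 or SRC2, and SRC3) bind the ligand-bound form of nuclear receptors, the glucocorticoid receptor (GR) among them, and bring in the acetyltransferases p300 (Ep300) and CBP (Crebbp). Ncor1 is the scaffold of a corepressor complex in which Hdac3 is the deacetylase, whereas Hdac1 and Hdac2 are the deacetylases of the Sin3, NuRD and CoREST complexes. In macrophages NF-kB and AP1 recruit cofactors to inflammatory genes. At Il1a and Il1b the paper reports that Dex blocked the recruitment of p300 seen with LPS. The mRNA levels of a cofactor say nothing about its recruitment.

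RefSeq promoter windows (GRCm38.p6, 300 bases around a start site) were at hand for 5 of the 9 genes: Ncoa1, Ncor1, Ep300, Crebbp and Hdac2. Those of the 2 acetyltransferases are shown because they carry the dense CpG dinucleotides common to promoters of widely expressed genes, in contrast to the LPS-induced Il1b. CG is in capitals, and the motif reads the same on both strands.
Ep300, chr15:81585964-81586263, plus strand: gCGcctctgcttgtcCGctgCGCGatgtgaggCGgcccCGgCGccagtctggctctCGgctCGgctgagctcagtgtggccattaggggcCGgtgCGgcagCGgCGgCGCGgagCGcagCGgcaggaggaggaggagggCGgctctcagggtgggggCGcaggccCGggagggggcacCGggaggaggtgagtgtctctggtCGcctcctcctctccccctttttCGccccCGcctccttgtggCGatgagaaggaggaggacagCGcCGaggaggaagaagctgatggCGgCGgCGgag
Crebbp, chr16:4213355-4213654, minus strand: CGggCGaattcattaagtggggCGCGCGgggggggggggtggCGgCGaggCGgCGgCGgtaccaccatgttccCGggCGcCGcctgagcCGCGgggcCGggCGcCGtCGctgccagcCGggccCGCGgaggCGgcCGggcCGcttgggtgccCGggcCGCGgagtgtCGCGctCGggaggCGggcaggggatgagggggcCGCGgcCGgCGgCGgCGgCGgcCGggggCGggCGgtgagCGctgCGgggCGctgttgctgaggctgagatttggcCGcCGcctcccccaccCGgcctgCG
The Ep300 window held 30 CpGs, a count reached by 24.4% of the 9476 promoter windows of genes in the table, and the Crebbp window held 49, reached by 1.96%. The Ncoa1 window also held 49 and that of Hdac2 held 36. Ncor1 had 2 windows, with 36 and 2 CpGs. The windows of Ep300, Crebbp and Ncor1 lie inside the annotated genes, downstream of where each gene starts. Their counts hold for these windows and may not be those of the main promoter. The Il1b window held 3, a count reached by 95.9% of the windows, and the median window held 21. That of Tnf, also induced by LPS, held 11, reached by 79.8%.

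All 9 cofactors were well expressed, with 587 to 8070 reads per gene and library out of 25000000 to 49700000 reads. Levels can be set between genes only per length, so CPM was divided by the kilobases of each gene's longest annotated transcript and averaged over 15 libraries (the 16th, described next, is left out). Ncoa3 was the highest at 23.5 ± 3.09 CPM per kb (SD, n = 15). Ncor1 at 15.9 ± 1.17, Hdac1 at 15.9 ± 1.13 and Ep300 at 14.96 ± 1.66 CPM per kb followed, and these neighbours did not differ beyond their spread. Hdac3 at 12.4 ± 0.686 and Hdac2 at 12.1 ± 0.942 CPM per kb also lay within each other's spread. The order closed with Ncoa2 at 9.32 ± 1.28, Ncoa1 at 7.79 ± 0.578 and Crebbp at 5.08 ± 0.604 CPM per kb, so Ep300 transcripts were more abundant per length than those of its paralog Crebbp and Ncoa3 transcripts more abundant than those of Ncoa1 and Ncoa2. With the length of all exons together instead, Hdac3 moved to rank 3 at 10.97 CPM per kb and Hdac1 to rank 5 at 9.41, Ncoa1 at 6.66 lay above Ncoa2 at 4.87, while Ncoa3 stayed first and Crebbp last.

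The untreated library of WT mouse A stood apart from the others, and it lowered 6 of the 9 cofactors. Its correlation with the other 15 libraries across genes was 0.830 to 0.909, against 0.924 to 0.993 among those 15. Its deviation from the median of the other 15 libraries, on the log2 scale, was -1.54 for Ncor1, -1.51 for Ep300, -1.36 for Ncoa2, -1.12 for Ncoa1, -1.02 for Ncoa3 and -0.81 for Crebbp. It was -0.19 for Hdac1, 0.10 for Hdac2 and 0.15 for Hdac3. The 6 low genes have longest transcripts of 7329 to 10820 bases and the 3 deacetylases 2038 to 3585 bases. Over the whole table the same library fell in step with transcript length. Genes with transcripts under 1 kb were 1.13 higher in the median (363 genes). Those of 3 to 4 kb were -0.01 from the others (1997 genes), and those over 8 kb were -0.88 (533 genes). Ncoa2, Ncor1 and Ep300 lay below that last median and Crebbp above it. Ncoa1 and Ncoa3 lay below the -0.71 of genes of 6 to 8 kb. Hdac1 lay below the 0.25 of genes of 2 to 3 kb, and Hdac2 and Hdac3 lay above the median of their class. The 4 libraries of the mice called C leaned the same way with transcript length, with medians of 0.15 to 0.25 for the shortest class. In the longest class those 4 medians were -0.01 to -0.15. A fit with the mouse as a block and each library corrected for transcript length, chosen after seeing the data, is therefore given beside the uncorrected one. For LPS in the WT on all 16 libraries the correction moved Ncor1 from 0.72 to 0.27 and Ep300 from 0.61 to 0.14. Ncoa3 moved from 0.40 to -0.009 and Crebbp from 0.46 to -0.03. The differences of the 3 deacetylases grew in size instead. Hdac1 moved from 0.096 to 0.32, Hdac2 from 0.036 to 0.054 and Hdac3 from -0.095 to -0.12. The corrected Hdac1 difference was the largest of the 9 cofactors, with an adjusted p of 0.0707 in limma. Every comparison that uses untreated WT cells is given with and without this library.

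**Figure D1:**
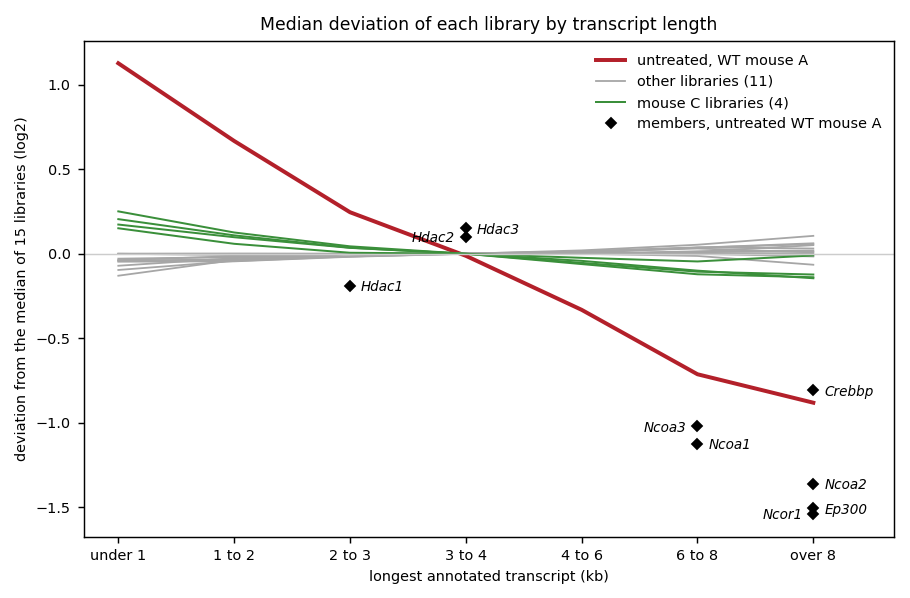
Median deviation of each library, in log2 units, from the median of 15 libraries (all but the untreated library of WT mouse A), in 7 classes of transcript length in kb; diamonds are the 9 cofactors in that library. The line of the untreated library of WT mouse A runs from 1.13 for the shortest class to -0.88 for the longest, and the 6 long cofactors lie between -0.81 and -1.54.

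Known responses were present in these libraries. Nelfb, the deleted gene, ran from 5.59 to 6.21 log2 CPM in the WT libraries and from 3.27 to 4.38 in the KO libraries. With LPS, Il1b rose by 7.60 in WT cells and by 8.44 in KO cells, and Tsc22d3 (GILZ, a direct GR target) rose by 3.80 and 3.82 with Dex, all on the log2 scale with adjusted p of 1.8e-08 or lower in limma. Of 8 macrophage markers 7 were read, summing to 6273 CPM in the untreated library of WT mouse A, the lowest, and up to 9122 CPM in the others; Adgre1 was not analysed here. Of 4 T cell markers 0 were among the genes analysed, and single B cell, neutrophil and dendritic cell markers (Cd79b, S100a8, Ccr7) reached at most 39.7, 41.5 and 10.1 CPM. Summed Col1a1, Col1a2 and Dcn, which mark fibroblasts, ran from 33.5 to 114.9 CPM, again lowest in the untreated library of WT mouse A, and their part in the values below was not tested. In such bulk libraries fewer cells of a type and less RNA per cell cannot be told apart.

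Across genotype and treatment the 9 transcripts moved little. Over the 15 other libraries the distance between the lowest and highest value was 0.30 for Hdac3, 0.33 for Ncoa1, 0.40 for Hdac1, 0.41 for Ncor1, 0.43 for Hdac2, 0.59 for Crebbp, 0.62 for Ep300, 0.65 for Ncoa3 and 0.69 for Ncoa2, in log2 units. The median gene spanned 0.62 over the same libraries, Tsc22d3 4.53, Tnf 6.58 and Il1b 9.01. Differences were tested with limma in 1 fit of all 16 libraries and 9 comparisons, and a gene was called at an adjusted p under 0.05 over all 9614 genes. In none of the 9 comparisons was any of the 9 cofactors called in that fit, or at an unadjusted p under 0.05, and voom in limma on recovered read numbers also called 0.

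**Figure D2:**
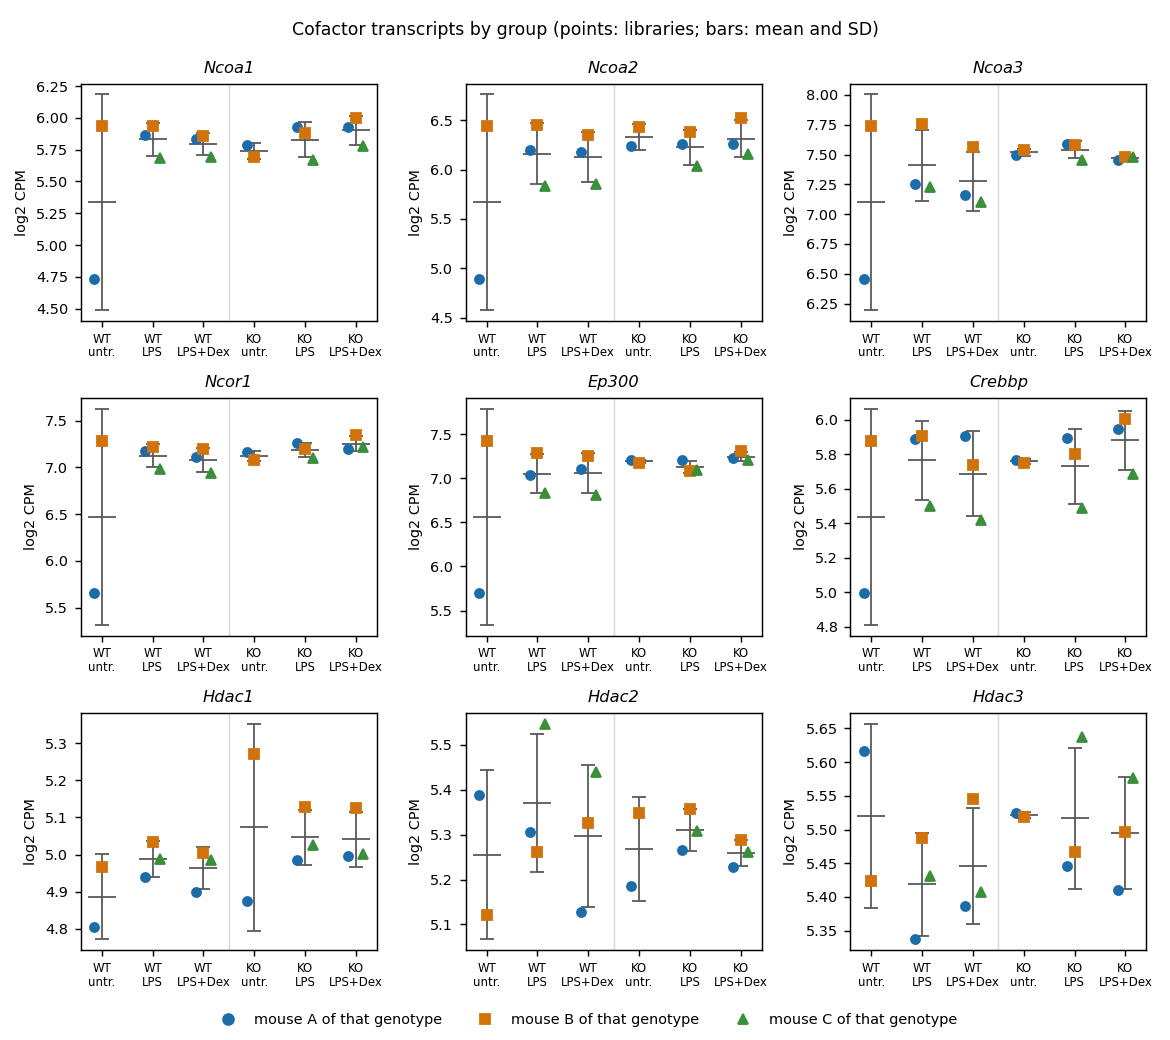
Deposited log2 CPM of the 9 cofactor genes in the 16 libraries, by genotype and treatment, with a scale of its own for each gene; each point is a library, the symbol gives the mouse, and bars give the mean and SD of 2 or 3 libraries. The untreated library of WT mouse A lies below all others for the 6 long genes, by 0.43 for Crebbp to 1.29 for Ncor1, and mice C are the lowest of each treated group for Ncoa1, Ncoa2 and Crebbp.

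Among the p160 coactivators, Ncoa1 (chr12:4247362-4477182, minus strand, GRCm38) read 4.74 and 5.94 log2 CPM in untreated WT mice A and B. It read 5.87, 5.94 and 5.69 with LPS and 5.83, 5.86 and 5.70 with LPS + Dex in WT mice A, B and C. In the KO the values were 5.79 and 5.69 untreated, 5.93, 5.88 and 5.67 with LPS, and 5.93, 6.00 and 5.78 with LPS + Dex. In each comparison the groups overlapped.

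Ncoa2 (chr1:13139105-13374083, minus strand), the p160 protein that acts with GR at both activated and repressed genes, read 4.90 and 6.44 in untreated WT mice A and B. With LPS the WT mice A, B and C read 6.20, 6.45 and 5.83, and with LPS + Dex 6.17, 6.35 and 5.85. The KO mice read 6.24 and 6.43 untreated, 6.26, 6.38 and 6.03 with LPS, and 6.26, 6.52 and 6.15 with LPS + Dex. The mice kept their order B, A, C in all 4 treated groups, and the distance from the lowest to the highest mouse was 0.35 to 0.62.

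Ncoa3 (chr2:165992636-166073242, plus strand) read 6.46 and 7.74 in untreated WT mice A and B. In WT mice A, B and C it read 7.25, 7.75 and 7.23 with LPS and 7.16, 7.56 and 7.10 with LPS + Dex. In the KO it read 7.498 and 7.54 untreated, 7.59, 7.58 and 7.46 with LPS, and 7.46, 7.48 and 7.48 with LPS + Dex. The WT mice were spread over 0.53 with LPS and the KO mice over 0.13.

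Of the acetyltransferases, Ep300 (chr15:81585351-81652077, plus strand) read 5.70 and 7.43 in untreated WT mice A and B, the lowest and the highest of its 16 values. WT mice A, B and C read 7.04, 7.29 and 6.84 with LPS and 7.10, 7.26 and 6.81 with LPS + Dex. KO mice read 7.20 and 7.18 untreated, 7.21, 7.08 and 7.10 with LPS, and 7.23, 7.31 and 7.21 with LPS + Dex. The WT treated groups overlapped almost fully, and in the KO the lowest LPS + Dex value, 7.206, lay just under the highest LPS value.

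Crebbp (chr16:4081328-4213997, minus strand) read 4.99 and 5.88 in untreated WT mice A and B. It read 5.89, 5.90 and 5.50 with LPS and 5.91, 5.73 and 5.42 with LPS + Dex in WT mice A, B and C. KO values were 5.77 and 5.75 untreated, 5.90, 5.80 and 5.49 with LPS, and 5.95, 6.01 and 5.69 with LPS + Dex. Mice C were the lowest in all 4 treated groups.

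The corepressor Ncor1 (chr11:62316426-62458541, minus strand) read 5.66 and 7.29 in untreated WT mice A and B. WT mice A, B and C read 7.17, 7.22 and 6.98 with LPS and 7.11, 7.20 and 6.94 with LPS + Dex. The KO read 7.16 and 7.08 untreated, 7.26, 7.20 and 7.10 with LPS, and 7.20, 7.35 and 7.22 with LPS + Dex. Every group but the untreated WT one lay between 6.94 and 7.35.

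The deacetylases spanned 0.30 to 0.43 over the 15 libraries. Hdac1 (chr4:129516104-129542713, minus strand) ran from 4.81 in untreated WT mouse A to 5.27 in untreated KO mouse B, and mouse B was the highest of every group of either genotype. Hdac2 (chr10:36974544-37001889, plus strand) ran from 5.12 in untreated WT mouse B to 5.55 in LPS-treated WT mouse C. Hdac3 (chr18:37935844-37955016, minus strand) ran from 5.34 in LPS-treated WT mouse A to 5.64 in LPS-treated KO mouse C. In each comparison the groups overlapped for all 3 genes.

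The question of the LPS comparisons was which transcripts changed within 1 hr of toll-like receptor activation. In WT BMDM 664 of 9614 genes were called (6.91%) and 0 of the 9 cofactors. The fitted differences were 0.65 for Ncor1 (95% interval -0.02 to 1.33, adjusted p = 0.192), 0.49 for Ncoa1, 0.49 for Ncoa2, 0.49 for Ep300, 0.33 for Crebbp and 0.31 for Ncoa3 on the log2 scale, and between -0.10 and 0.12 for the deacetylases. These sizes rested on 1 library. Within WT mouse A the change from untreated to LPS was 1.52 for Ncor1 and 1.35 for Ep300, and within WT mouse B it was -0.07 and -0.14. Without the untreated library of WT mouse A the differences of all 6 long genes turned negative, from -0.11 for Ncoa1 to -0.37 for Ep300. Without the untreated library of WT mouse B, so that untreated WT rested on mouse A alone and this lone library was assumed to vary like the other groups, 56.1% of all genes were called, and 6 cofactors with them, from 0.77 for Crebbp to 1.47 for Ncor1. Their number has to be read against that share.

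Because libraries of a mouse deviated together, the mouse was also used as a block, with the untreated library of WT mouse A left out. In that fit 14.9% of genes were called for LPS in the WT, again with 0 of the 9 cofactors. Ep300 was at -0.16 (95% interval -0.30 to -0.02, adjusted p = 0.134) and Hdac2 at 0.21 (0.04 to 0.38, adjusted p = 0.10), and these were the 2 cofactors with an unadjusted p under 0.05. The other 7 lay between -0.06 and 0.08, and no interval of the 9 reached beyond a 1.30-fold change. This estimate for the WT rests on the untreated library of mouse B alone.

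In KO BMDM LPS changed 386 genes (4.01%) and 0 of the 9 cofactors, whose differences ran from -0.11 for Ncoa2 to 0.09 for Ncoa1. In the block fit without the untreated library of WT mouse A 27.9% of genes were called and 1 of the 9 cofactors, Ncoa1, which rose by 0.16 (SE 0.05, adjusted p = 0.0283). With all 16 libraries and the length correction it was at 0.11 (adjusted p = 0.646), and without a block, leaving out 1 library at a time, at 0.038 to 0.17 and not called. The rise was 0.15 in KO mouse A and 0.19 in KO mouse B, and Ncoa1 changed by 1.13 and 0.00 in WT mice A and B. The difference between the genotypes was 0.18 (95% interval 0.00 to 0.36, adjusted p = 0.851), so it did not pass the test. All 9 KO intervals in this fit stayed within a 1.20-fold change.

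The Dex comparisons asked which transcripts GR activation changed in cells that also received LPS. The LPS libraries serve in both the LPS and the Dex comparisons. In WT BMDM 72 genes were called (0.749%) and 0 of the 9 cofactors, with differences from -0.14 for Ncoa3 to 0.03 for Hdac3. In the KO 86 genes were called (0.895%) and again 0 of the 9, with differences from -0.07 for Ncoa3 to 0.15 for Crebbp. Adjusted p was 1 for all 18 values, and intervals reached 1.61-fold in the WT and 1.72-fold in the KO.

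With the mouse as a block and without the untreated library of WT mouse A, which enters these comparisons only through the shared spread, the same differences had SEs of 0.04 to 0.05. Of all genes 9.62% were then called in the WT and 13% in the KO. Ncoa3 fell by 0.14 with Dex in the WT (SE 0.04, adjusted p = 0.0354): it was lower in 3 of 3 mice, by 0.09, 0.19 and 0.13. With all 16 libraries and the length correction it was at -0.12 (adjusted p = 0.418), and without a block and without the LPS library of WT mouse B it turned to 0.035. In the KO Ncoa3 was at -0.07 (adjusted p = 0.278), lower in 2 of 3 mice, and the difference between genotypes was 0.07 (95% interval -0.05 to 0.18, adjusted p = 0.875). With all 16 libraries and the length correction Ncoa3 was at -0.13 in the KO (adjusted p = 0.307), and the difference between genotypes was -0.008. Crebbp rose by 0.15 in the KO (SE 0.05, adjusted p = 0.0483), by 0.05, 0.20 and 0.20 in mice A, B and C. Under the length correction Crebbp was at 0.053 (adjusted p = 0.999), and leaving out 1 library at a time without a block gave 0.03 to 0.25, not called. In the WT Crebbp was at -0.08 (adjusted p = 0.464), with changes of 0.02, -0.17 and -0.08. The KO change of Crebbp exceeded the WT change by 0.23 (95% interval 0.09 to 0.37), with an adjusted p of 0.522. Ep300 was at 0.12 in the KO (adjusted p = 0.0784), higher in 3 of 3 mice by 0.02, 0.23 and 0.11, and at 0.00 in the WT. The call of 1 of the 9 in each genotype stands beside 9.62% and 13% of all genes, a like share.

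The same fit, which was chosen after seeing the data, gave narrow intervals for Dex at 1 hr. The 95% intervals of the 9 cofactors together spanned -0.22 to 0.12 in the WT and -0.16 to 0.25 in the KO, so that no interval held a change of more than 1.16-fold in the WT or 1.19-fold in the KO. For Ncor1 the interval was -0.14 to 0.05 in the WT, for Hdac3 -0.06 to 0.12, and for Ncoa2 -0.12 to 0.05. These bounds depend on the fit. With the block on all 16 libraries the intervals reached 1.55-fold in the WT and 1.62-fold in the KO. With the length correction added, the Ncor1 interval in the WT was -0.28 to 0.23. For comparison, Tsc22d3 rose by 3.80 in the same libraries.

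**Figure D3:**
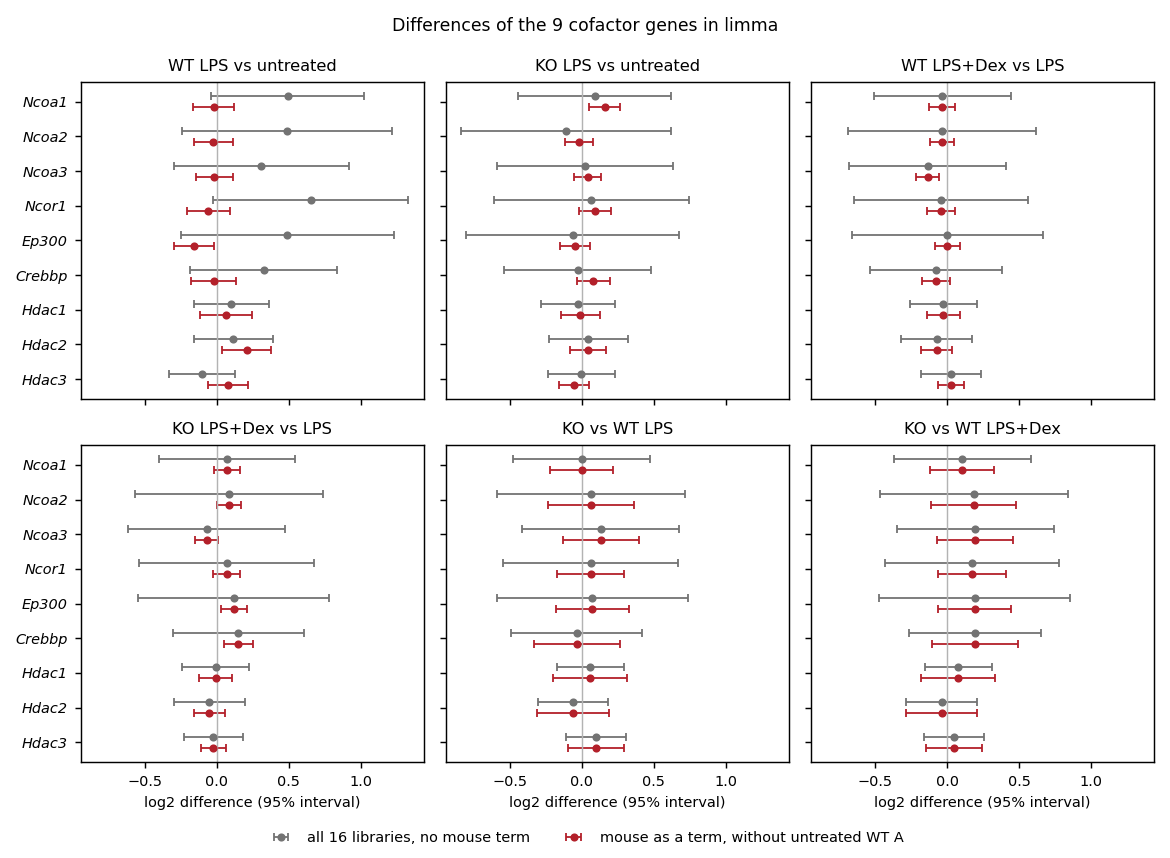
Log2 differences of the 9 cofactors with 95% intervals from limma in 6 comparisons, from the fit of all 16 libraries without a mouse term (grey) and from the fit with the mouse as a block and without the untreated library of WT mouse A (red). The long genes sit at 0.31 to 0.65 in grey and -0.16 to -0.015 in red for LPS in the WT, and in the Dex panels the values are equal in both fits and the red intervals are narrower.

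KO and WT were compared at each treatment to ask whether loss of NELF-B changed cofactor levels. With LPS 14 genes were called (0.146%) and with LPS + Dex 11 (0.114%), and 0 of the 9 cofactors in either. The differences with LPS ran from -0.06 for Hdac2 to 0.13 for Ncoa3. With LPS + Dex the differences ran from -0.04 for Hdac2 to 0.20 for Ncoa3. The median of the 9 was 0.17, against 0.01 over all genes, and all adjusted p were 1.00. In the block fit without the untreated library of WT mouse A the intervals with LPS + Dex reached 1.41-fold and the lowest adjusted p was 0.600, for Ep300. With the block and the length correction on all 16 libraries the 9 ran from -0.03 for Hdac2 to 0.14 for Ncoa3. That correction moved Crebbp from 0.19 to 0.10 and Hdac1 from 0.08 to 0.10. Between untreated KO and WT cells it moved Hdac1 from 0.17 to 0.36 (adjusted p = 0.295 in limma), the largest of the 9.

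Batches could not be read from the labels for all libraries. The mice called C share a style of run label. Of WT mouse B only the untreated library prints the date that KO mouse B prints, and its LPS and LPS + Dex libraries print none. KO mouse A prints another date and WT mouse A prints none, so no label links the mice called A. The differences are therefore given within mouse letter, which stands in for a batch by the letter alone. With LPS + Dex, KO minus WT in letters A, B and C was 0.09, 0.17 and 0.30 for Ncoa2 and 0.12, 0.05 and 0.40 for Ep300. It was 0.04, 0.27 and 0.27 for Crebbp, 0.09, 0.15 and 0.28 for Ncor1, and 0.29, -0.08 and 0.37 for Ncoa3. With LPS, KO minus WT in letters A, B and C was 0.06, -0.07 and 0.20 for Ncoa2 and 0.17, -0.21 and 0.26 for Ep300. It was 0.008, -0.10 and -0.01 for Crebbp, 0.08, -0.02 and 0.12 for Ncor1, and 0.34, -0.18 and 0.23 for Ncoa3. A fit with the mouse letter as a block called 0 of the 9 cofactors at any treatment.

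In untreated cells 1 gene was called between KO and WT (0.0104%) and 0 of the 9 cofactors, although the long genes were 0.32 to 0.66 higher in the KO in the mean. That gap again rested on the untreated library of WT mouse A: KO minus WT was 1.51 for Ncor1 and 1.51 for Ep300 in mice A, and -0.21 and -0.25 in mice B. Without that library the 6 long genes lay between -0.11 for Ncoa2 and -0.24 for Ep300, with an adjusted p of 0.980 each. Without the untreated library of WT mouse B 50.5% of genes and 6 of the 9 cofactors were called.

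The changes themselves were compared between genotypes as interactions. For the LPS response 0 genes were called (0%), with 221 genes at an unadjusted p under 0.05 in limma. For the Dex response 0 (0%) were called, with 0 genes of the whole table at that level. A test that no gene reaches at that level cannot decide whether a Dex response differed between genotypes. Of the 9 cofactors 0 passed either threshold. With the block on all 16 libraries 27 genes and 0 of the 9 cofactors reached the unadjusted level for the Dex response. The LPS interactions of the 6 long genes ran from -0.29 for Ncoa3 to -0.60 for Ncoa2. Without the untreated library of WT mouse A all 6 turned positive, from 0.085 for Crebbp to 0.35 for Ncoa3, and 0 of the 9 were called. In the block fit without that library the 9 ran from -0.16 for Hdac2 to 0.18 for Ncoa1, again with 0 called. Leaving out the untreated library of WT mouse B instead moved the LPS interaction to 38.8% of genes and 6 of the 9 cofactors, with values of -0.80 for Crebbp to -1.42 for Ep300. In the block fit without the untreated library of WT mouse A the Dex interactions of the 9 ran from -0.05 for Hdac3 to 0.23 for Crebbp, with 0 called. With the block and the length correction on all 16 libraries they ran from -0.05 for Hdac3 to 0.10 for Crebbp.

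Beside the 9 cofactors, 3 lists of the same machinery were read: 15 of 16 further coactivators and acetyltransferases, 21 of 21 partners in corepressor complexes, and 7 of 8 further deacetylases. In the fit of all 16 libraries 1 of the 15 coactivators was called for LPS in the WT, against 6.91% of all genes, and 0 in each other comparison. That gene was Ncoa7, an estrogen receptor coactivator, which was 0.85 higher (SE 0.20, adjusted p = 0.0221), and the call was lost without the untreated library of WT mouse A or any 1 of the 3 WT LPS libraries. The list's median difference there was 0.35, against 0.02 over all genes. In the block fit without the untreated library of WT mouse A the list's median was 0.021, against 0.004 over all genes. In this fit 0 of the 21 corepressor partners and 0 of the 7 deacetylases were called in any comparison, with 4 and 2 at an unadjusted p under 0.05 for LPS in the WT.

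With the mouse as a block on all 16 libraries the share of genes called was 13.8% for LPS and 2.19% for Dex in the WT, and 7.32% and 2.57% in the KO. This fit added Ncoa5 and Sap30, and called 0 of the 9 cofactors. For LPS in the WT 5 of the 9 had an unadjusted p under 0.05 in limma, beside 4554 of all genes. The lowest adjusted p of the 9 was 0.0926, for Ncoa2. Ncoa5, a coregulator of estrogen receptors and other nuclear receptors, read 5.01, 5.34 and 4.96 log2 CPM with LPS and 5.52, 6.02 and 5.65 with LPS + Dex in WT mice A, B and C. In the KO it read 4.89, 5.26 and 4.92 with LPS and 5.61, 5.96 and 5.56 with LPS + Dex. It was higher with Dex in 6 of 6 mice and the groups did not overlap. Ncoa5 rose by 0.63 in the WT (SE 0.08, adjusted p = 0.00595) and by 0.69 in the KO (SE 0.08, adjusted p = 0.00326), against adjusted p of 0.390 and 0.230 without the block. The difference between genotypes was 0.06 (95% interval -0.20 to 0.33).

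Sap30, a subunit of the Sin3 complex of Hdac1 and Hdac2, read 4.21 and 3.35 in untreated WT mice A and B and 4.97, 4.05 and 5.96 with LPS in A, B and C. In the KO it read 3.73 and 3.58 untreated and 4.83, 4.69 and 5.05 with LPS. The mice differed more than the treatments did in the WT, but each of the 4 mice with both libraries rose, by 0.77 and 0.70 in the WT and by 1.106 and 1.102 in the KO. In the block fit Sap30 rose by 0.75 in the WT (adjusted p = 0.00224) and by 1.05 in the KO (adjusted p = 0.000257), while without the block the values were 1.22 and 1.20 with adjusted p of 0.161 and 0.482. Ncoa7 rose by 0.91 in the WT in the block fit (adjusted p = 0.00585).

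Leaving the untreated library of WT mouse A out of the block fit raised the share of all genes called to 14.9% (WT) and 27.9% (KO) for LPS, and to 9.62% and 13% for Dex. Ncoa7 rose by 0.56 in the WT (adjusted p = 0.000146) and by 0.54 in the KO (adjusted p = 8.3e-06) with LPS, and Sap30 by 0.73 and 1.05. In the KO the acetyltransferase Kat2b (PCAF) also rose with LPS, by 0.36, the acetyltransferase Kat7 fell by 0.13, the corepressor Nrip1 (RIP140) rose by 0.31 and Chd4, the remodelling ATPase of NuRD, by 0.24, so that 3 of 15 coactivators and 3 of 21 corepressor partners were called beside those 27.9% of genes. With Dex, Ppargc1b (PGC-1beta, a coactivator of metabolic nuclear receptors) rose by 0.58 in the WT and 0.46 in the KO beside Ncoa5, and was higher in 3 of 3 mice of each genotype; without the block its adjusted p was 1 in both. Chd4 fell by 0.12 with Dex in the WT, and in the KO Ncoa4, best known as a receptor for ferritin in autophagy, fell by 0.22 and Tbl1xr1, a subunit of the Ncor1 complex, rose by 0.13. None of the 7 other deacetylases was called in any comparison of this fit, with at most 1 at an unadjusted p under 0.05, and their Dex differences ran from -0.12 to 0.06. No gene of the 3 lists was called between KO and WT in the fit of all 16 libraries without or with the block, or in this one. With the mouse as a block and the length correction on all 16 libraries, 20.6% of genes were called for LPS and 3.25% for Dex in the WT, and 10.1% and 3.8% in the KO. In that fit Ncoa7 and Sap30 rose with LPS and Ncoa5 with Dex in both genotypes, and Kat7, Nrip1, Chd4, Ncoa4, Tbl1xr1 and Ppargc1b were not called for LPS or Dex, nor was Kat2b in the KO. For LPS in the WT it called 3 of 15 coactivators, Kat2b (0.75), Ncoa7 (0.52) and Kat6b (0.37), beside those 20.6% of genes. It also called 4 of 21 corepressor partners there, with the largest changes in Sap30 (1.21), Sap18 (-0.57) and Rcor1 (0.43). Without the untreated library of WT mouse B and without a block 11, 13 and 3 genes of the 3 lists were called for LPS in the WT, against 56.1% of genes, and 12, 13 and 3 between untreated KO and WT, against 50.5%.

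**Figure D4:**
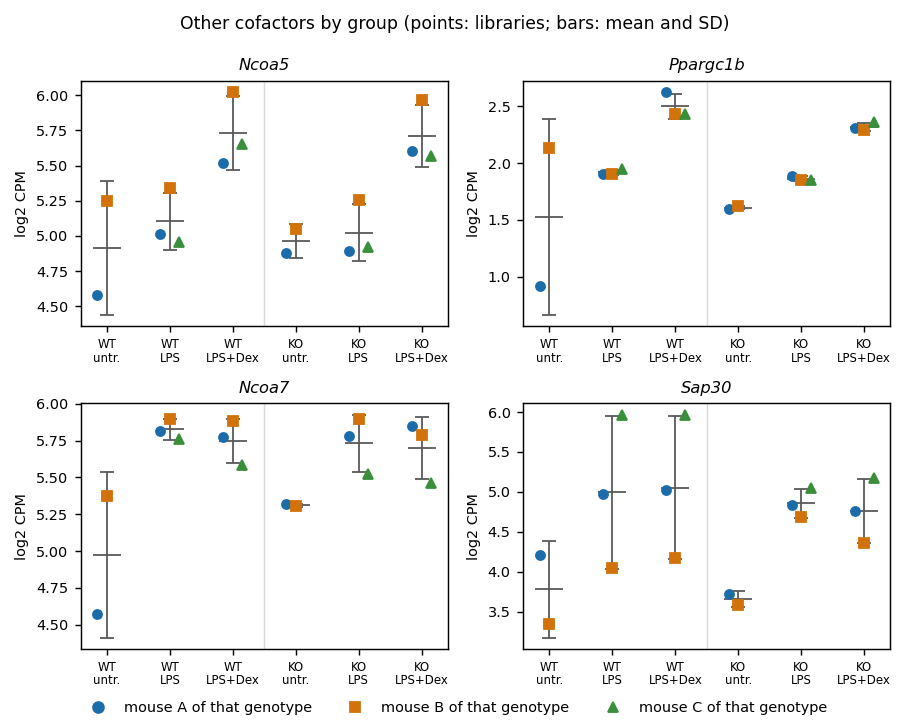
Deposited log2 CPM of Ncoa5, Ppargc1b, Ncoa7 and Sap30 in the 16 libraries, by genotype and treatment, with a scale of its own for each gene; each point is a library, the symbol gives the mouse, and bars give the mean and SD. Each mouse has higher Ncoa5 and Ppargc1b with LPS + Dex than with LPS, and each mouse with both libraries has higher Ncoa7 and Sap30 with LPS than untreated.

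The 6 long cofactors also varied together over libraries, which is given as a description, since the libraries share mice and the trend with transcript length. Pearson's r between pairs of the 6 ran from 0.77 to 0.98 over 16 libraries and from 0.43 to 0.88 over the 15 without the untreated library of WT mouse A. Pairs of the 3 deacetylases had r of 0.03 to 0.35 over the 15. Hdac2 ran against the long genes, with r of -0.75 to Ep300 and -0.66 to Crebbp over the 15. The gene most like Crebbp over 16 libraries was Rc3h1 (r = 0.981), and that most like Ncor1 was Atp11a (r = 0.992). Ncoa1 was nearest to Taok1 (r = 0.99), Ncoa2 to Prr14l (r = 0.988) and Ncoa3 to Slc16a6 (r = 0.976). The deacetylases had looser neighbours, with Hnrnpd for Hdac2 (r = 0.914), Abhd12 for Hdac3 (r = 0.855) and Fbrsl1 for Hdac1 (r = 0.819). Over the 15 libraries Rc3h1, Taok1 and Hnrnpd stayed first for Crebbp, Ncoa1 and Hdac2, with r of 0.962, 0.920 and 0.946, and Ncoa2, Ncoa3, Ncor1, Hdac1 and Hdac3 had a different nearest gene.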

How the data were processed

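RNA-seq libraries of polyA RNA were sequenced as 50 bp pairs. The authors mapped reads to mm10 in CLC Bio Genomic Workbench, took exon reads that mapped uniquely, scaled them by the weighted trimmed mean in edgeR and deposited log2 CPM for 9614 genes. The filter behind that number is not given in the sources used here. The p-value and FDR columns of the authors' own comparisons were not used. The 9 genes and the 3 lists beside them were chosen with earlier results of these data known. All 9 genes and, per list and comparison, up to 3 called genes with the largest change are named. For the lists in the fit without the untreated library of WT mouse B only counts are given. Other genes named are fixed checks, markers and nearest genes by r. The gene nearest to Ep300 is not reported here.

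The test planned for counts did not apply. The deposited log2 values of all 16 libraries were fitted in 6 groups with lmFit and eBayes (trend) in limma 3.58.1 under R 4.3.3, with no pseudocount or filter. P-values were two-sided and adjusted by the Benjamini-Hochberg method over 9614 genes. The fit was tested on simulated data. Tables and figures used Python 3.11.15, pandas 2.3.3 and matplotlib 3.10.9. Depth was recovered from the equal steps of low values: 100% of values under 3 CPM came out within 0.1 of a whole read, for 25000000 to 49700000 reads per library. A count of 3 reads corresponds to 0.065 to 0.136 CPM, a floor that covers counting error only. Positions and transcript lengths are from GENCODE vM21 (GRCm38, the assembly of mm10), with lengths for 9571 genes.

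Libraries of a mouse come from the mouse numbers in the labels. After the group means were taken off, their values across genes correlated with r of 0.781 to 0.939 for LPS and LPS + Dex and 0.185 to 0.822 for untreated and LPS. The mouse was therefore also fitted as a replicate block (a random effect for KO against WT). Other alternatives were a block for the mouse letter (A, B or C), only the groups compared, an adjusted p under 0.1, over 1.5-fold, log2(CPM + 1), mean log2 CPM above 1, centring on the median gene, voom on recovered reads and leaving out each library. The block without the untreated library of WT mouse A and the block with a correction for transcript length were chosen after seeing the data.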

Additional observations from a re-analysis of the deposited data

How the results depend on the processing

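The number of the 9 cofactors called was 0 in all 9 comparisons under the replicate block, the block for the mouse letter (KO against WT) and the block with a correction for transcript length. Without a block it was also 0 under only the groups compared, adjusted p under 0.1, over 1.5-fold, log2(CPM + 1), mean log2 CPM above 1, centring and voom. Leaving out each library gave 0 to 6 for LPS in the WT, for KO against WT untreated and for the difference in LPS response, with 6 only without the untreated library of WT mouse B, and 0 in the other 6 comparisons. The block without the untreated library of WT mouse A called 1 for Dex in the WT, 1 for LPS in the KO and 1 for Dex in the KO. Counts over all genes changed by more than 1.5 times under the replicate block (1326 against 664 for LPS in the WT, 211 against 72 for Dex in the WT, 704 against 386 and 247 against 86 in the KO).

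Signs turned as follows. No value with a turned sign was called, and the cause was not tested. For LPS in the WT, the block without the untreated library of WT mouse A gave -0.021 for Ncoa1, -0.022 for Ncoa2, -0.015 for Ncoa3, -0.057 for Ncor1, -0.16 for Ep300, -0.021 for Crebbp and 0.08 for Hdac3, and the block with the length correction -0.009 for Ncoa3 and -0.031 for Crebbp. For KO against WT untreated, the first gave -0.18 for Ncoa1, -0.10 for Ncor1, -0.057 for Ep300 and -0.135 for Crebbp, the second -0.049 for Crebbp and -0.044 for Hdac2, the replicate block -0.04 for Hdac2 and centring -0.003 for Hdac3. Leaving out 1 library gave, for LPS in the WT, -0.11 to 1.09 for Ncoa1, -0.28 to 1.26 for Ncoa2, -0.33 to 0.95 for Ncoa3, -0.16 to 1.47 for Ncor1, -0.37 to 1.36 for Ep300, -0.11 to 0.77 for Crebbp and -0.017 to 0.25 for Hdac2. For KO against WT untreated it gave -0.20 to 1.00 for Ncoa1, -0.11 to 1.44 for Ncoa2, -0.22 to 1.06 for Ncoa3, -0.17 to 1.47 for Ncor1, -0.24 to 1.495 for Ep300, -0.12 to 0.76 for Crebbp, -0.01 to 0.39 for Hdac1, -0.12 to 0.14 for Hdac2 and -0.10 to 0.10 for Hdac3. For the difference in LPS response the block without the untreated library of WT mouse A gave 0.18 for Ncoa1, 0.002 for Ncoa2, 0.057 for Ncoa3, 0.151 for Ncor1, 0.113 for Ep300 and 0.101 for Crebbp, the block with the length correction 0.001 for Ncoa3 and 0.046 for Crebbp, and leaving out 1 library -1.005 to 0.195 for Ncoa1, -1.37 to 0.173 for Ncoa2, -0.93 to 0.35 for Ncoa3, -1.40 to 0.226 for Ncor1, -1.42 to 0.31 for Ep300 and -0.80 to 0.085 for Crebbp. Ncoa3 with Dex in the WT ran from -0.28 to 0.035. Each cofactor had at least 587 reads in each library.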
